A study of Mus musculus with 6 samples.

Results

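The nuclear-encoded subunits of respiratory complexes II, III, IV and V were examined in inguinal white adipose tissue, a subcutaneous fat depot of the mouse. They were chosen by gene symbol from a list of 41 subunits, and all 41 were found among the 13490 genes of the deposited table: 4 of complex II, 10 of complex III (cytochrome c included), 12 of complex IV and 15 of complex V. RNA sequencing had been performed on tissue from 6 wild-type C57BL/6J males aged 15 weeks. Arsenite-treated mice (3 mice, replicates 9, 10 and FC16) were given sodium arsenite, an inorganic salt of trivalent arsenic, at 300 ppb in what they drank, and water-treated mice (3 mice, replicates 4, 6 and 8) drank distilled water, in both groups for 9 weeks. The deposited values were a mean per group for each gene, the authors' log2 ratio of arsenite over water, and a posterior probability that expression was equal in both groups (PPEE), so values per mouse, their SDs and tests over mice were not analysed here. The series title names adaptive thermogenesis, for which mitochondria of fat cells are the site.

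The respiratory chain passes electrons from fuels to oxygen along the inner mitochondrial membrane and pumps protons across it as it does so. Complex II feeds in electrons from succinate, complex III hands them to the mobile carrier cytochrome c, and complex IV reduces oxygen. Complex V, the ATP synthase, lets protons flow back to make ATP. In brown and beige adipocytes the uncoupling protein UCP1 lets protons bypass complex V, so that respiration gives heat. White adipocytes have far fewer mitochondria, and skeletal muscle, brown fat and beige fat many, so that the subunit transcripts of a whole depot follow both cell make-up and the content of each cell. In bulk tissue, fewer cells of a type and less RNA per cell cannot be told apart.

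All 41 subunits had a lower mean in arsenite-treated than in water-treated mice as deposited (39 with both groups scaled to equal sums, Atp5g1 and Cox6a2 then lying above 0), but none was called as different by the authors' PPEE. Their means summed to 127818 under arsenite and 189246 under water, the arsenite sum being 67.5% of the water sum, whereas over all 13490 genes it was 89.6%. The subunits thus made up 1.66% of the summed means of the table under arsenite and 2.20% under water. The median log2 ratio in the authors' deposited table was -0.58 over the subunits and -0.03 over all genes, of which 54.5% lay below 0. Of 982 genes of 1000 bases or less, 767 lay below 0 as deposited. Among 3578 genes with at least the lowest average mean of a subunit, 2383 did, with a median of -0.12. Equal sums put the median of all genes at 0.12 and that of the subunits at -0.42. A log2 ratio of -0.5 or less was held by 26 of the 41 subunits and by 8.22% of all genes as deposited. That bound was chosen after the values were seen, and with equal sums the subunit median of -0.42 lay above it. Of 982 genes of 1000 bases or less, 186 held such a ratio as deposited, as did 18 of the 26 subunits of that length. At a PPEE of 0.05 or less, 0.348% of all genes were called lower and 0.385% higher in the authors' deposited table. No subunit passed that bound or a bound of 0.5, and the smallest PPEE among them in the authors' deposited table was 0.873, for Atp5g3. PPEE exceeded 0.9 for 40 of the 41 subunits in the authors' deposited table, as for 12816 of all 13490 genes. The deposited group means thus ran in the same direction for all subunits, while the authors' comparison called none of them singly.

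**Figure D1:**
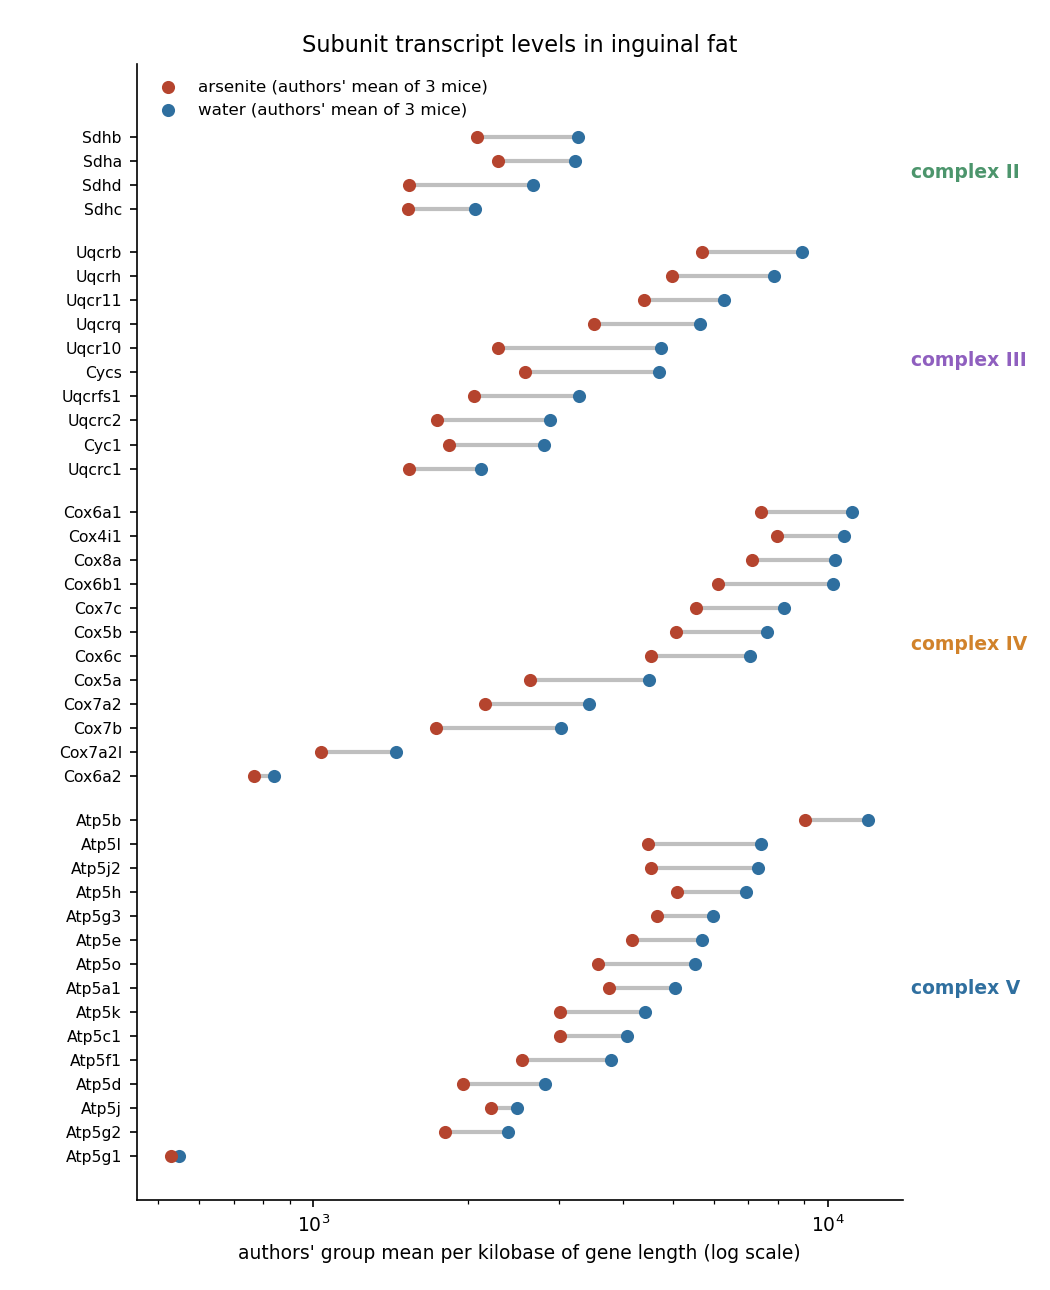
Authors' group means per kilobase of gene length (log axis) for the 41 subunits, by complex, with arsenite in red and water in blue; points are means of 3 mice and carry no error bar because values per mouse were not analysed here. Every red point lies left of its blue point in the means as deposited (Atp5g1 and Cox6a2 would not with equal sums), from Atp5b, at 9030 under arsenite and 11968 under water, down to Atp5g1, at 530.0 under arsenite and 548 under water.

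Complex II, succinate dehydrogenase, links the tricarboxylic acid cycle to the chain and has all its subunits encoded in the nucleus. Its median log2 ratio in the authors' deposited table was -0.57 over 4 subunits. Sdha, the flavoprotein that oxidizes succinate, had a mean of 6543 under arsenite and 9213 under water, a log2 ratio of the means of -0.49. Sdhb, the iron-sulphur subunit, had 2269 under arsenite and 3572 under water (-0.65). Both subunits of the catalytic head thus had lower means in arsenite-treated mice. Of the membrane anchors that bind ubiquinone, Sdhc had 1804 under arsenite and 2436 under water (-0.43), and Sdhd had 1978 under arsenite and 3442 under water (-0.80). Sdhd therefore lay lowest of the 4 by ratio and Sdhc highest, and the members of the head lay between them.

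Complex III had the lowest median of the 4 complexes, -0.67 in the authors' deposited table, and 9 of its 10 genes had a ratio of -0.5 or less. Cycs, cytochrome c, which carries electrons from complex III to complex IV and is grouped with it here, had a mean of 7881 under arsenite and 14356 under water, a log2 ratio of the means of -0.87. Of its 50-base transcript stretches, 25.9% also occur in transcripts of other genes, so its values are uncertain. The electron-transferring subunits had closely similar ratios. Cyc1, cytochrome c1, had 2193 under arsenite and 3355 under water (-0.61). Uqcrfs1, the Rieske iron-sulphur protein, had 2691 under arsenite and 4307 under water (-0.68). The matrix-facing core proteins were further apart, with Uqcrc1 at 2552 under arsenite and 3522 under water (-0.46). Uqcrc2, the other core protein, had 3275 under arsenite and 5426 under water (-0.73).

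The 5 small subunits of complex III, which surround the catalytic core, included the subunit with the lowest ratio of all 41. Uqcr10, on chromosome 11 at 4701968 to 4704344 in GRCm38, had a mean of 1015 under arsenite and 2100.2 under water (log2 ratio of the means -1.05), the arsenite mean being 48.3% of the water mean. Its PPEE was 0.922 in the authors' deposited table. The other four had ratios much closer to the median of the complex. Uqcrq, a ubiquinone-binding subunit, had 1792 under arsenite and 2877 under water (-0.68), and Uqcrh, the hinge protein that helps cytochrome c1 dock with cytochrome c, had 2802 under arsenite and 4417 under water (-0.66). Uqcrb, another ubiquinone-binding subunit, had 2858 under arsenite and 4476 under water (-0.65), with 25.4% of its 50-base stretches shared with other genes. Uqcr11, the last subunit to join the complex, had 1912 under arsenite and 2742 under water (-0.52).

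Complex IV, cytochrome c oxidase, had a median of -0.59 in the authors' deposited table over its 12 subunits. Its catalytic subunits are encoded in mitochondrial DNA and were not analysed here, and the nuclear subunits surround them. Cox4i1, the common form of a regulatory subunit that binds ATP, had a mean of 5398 under arsenite and 7285 under water, a log2 ratio of the means of -0.43. Cox5a, which faces the matrix, had 1866 under arsenite and 3181 under water (-0.77), and Cox5b, a zinc-binding subunit, had 2959.8 under arsenite and 4437 under water (-0.58). Among these larger subunits the ratio of Cox5a was the lowest.

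The smaller subunits of complex IV come partly in tissue forms, and the muscle form differed in ratio from its partner. Cox6a1, the form of most tissues, had 3956 under arsenite and 5940.0 under water (-0.59). Cox6a2, the form of heart and skeletal muscle, had 519 under arsenite and 570 under water (-0.13, or 0.02 with equal sums), the arsenite mean being 91.2% of the water mean. Cox6a2 lay highest of the complex by ratio, and every other subunit of complex IV had a ratio of -0.43 or less. Cox6b1, which binds cytochrome c on the outer face, had 3086 under arsenite and 5156 under water (-0.74). Cox6c had 2383 under arsenite and 3724 under water (-0.64). Those ratios lay on the low side of the complex. Cox7b, encoded on the X chromosome, had the lowest ratio of the complex, with 2035 under arsenite and 3555 under water (-0.81). Cox7a2, the form of most tissues, had 1624 under arsenite and 2583 under water (-0.67), and Cox7a2l, which helps join complexes III and IV into supercomplexes, had 1146 under arsenite and 1598 under water (-0.48). The remaining members, Cox7c and Cox8a, were close to the median: Cox7c had 2488 under arsenite and 3695 under water (-0.57), with 22.1% of its 50-base stretches shared. Cox8a, the form of most tissues, had 3881 under arsenite and 5628 under water (-0.54).

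Complex V had the highest median of the 4 complexes, -0.45 in the authors' deposited table, and 6 of its 15 subunits had a ratio of -0.5 or less. The F1 head and its central stalk, which carry out catalysis and rotation, had ratios within a narrow band. Atp5b, the catalytic beta subunit, had a mean of 16968 under arsenite and 22487 under water (log2 ratio of the means -0.41), and its level per kilobase of gene length was the highest of the 41 subunits in both groups. Atp5a1, the alpha subunit, had 9164 under arsenite and 12329.9 under water (-0.43). Atp5c1, the gamma subunit of the rotating stalk, had 3563 under arsenite and 4807 under water (-0.43). These 3 ratios lay within 0.03 of each other. Atp5d, the delta subunit, had 1819.8 under arsenite and 2629 under water (-0.53), and Atp5e, the epsilon subunit, had 1744 under arsenite and 2386 under water (-0.45).

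The proton-conducting c ring is built from 1 protein that is encoded by 3 genes, and these differed in level and in ratio. Atp5g3, the most abundant of them per kilobase, had 3155 under arsenite and 4052 under water (-0.36). Atp5g2 had 1166 under arsenite and 1549 under water (-0.41), and other genes hold 38.4% of its 50-base stretches. Atp5g1, on chromosome 11 at 96072793 to 96075694 in GRCm38, had 423 under arsenite and 438 under water (-0.05), the ratio nearest to 0 of all 41 subunits, which turned to 0.11 with equal sums. Its arsenite mean was 96.7% of its water mean. Sharing of 50-base stretches was found at 24 of the 41 subunits (median over all 41 0.603%), and besides those named above it was 19.9% for Atp5h, 14.1% for Atp5o, 13.8% for Cox7a2l, 11.9% for Cox5b, 10.2% for Atp5g1 and below that for the others. The gene at the top of the c ring by level was thus lower under arsenite by more than the gene at the bottom, a difference that was not tested.

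The peripheral stalk, which holds the head still, held the other high ratio of the complex. Atp5j, coupling factor 6, had 1767 under arsenite and 1985 under water (-0.17), and was above 0 only once length or level trends were removed. The rest of the stalk lay lower: Atp5o, the oligomycin sensitivity conferring protein, had 2761 under arsenite and 4259 under water (-0.63). Atp5f1, the b subunit, had 3777 under arsenite and 5638 under water (-0.58), and Atp5h, the d subunit, had 2918 under arsenite and 3980.4 under water (-0.45). The membrane subunits e, f and g, which help the synthase form dimers, had the lowest ratios of the complex as a group. Atp5l, subunit g, had 2369 under arsenite and 3919 under water (-0.73). Atp5j2, subunit f, had 2247 under arsenite and 3624 under water (-0.69), and Atp5k, subunit e, had 1071 under arsenite and 1571 under water (-0.55). The range of these 3 ratios did not overlap that of the 5 head and central stalk subunits, which are longer (median 1182 bases against 496 bases for subunits e, f and g). After the trend of ratio on gene length over all genes was removed, both medians came close together, -0.36 for the membrane subunits and -0.34 for the head and central stalk.

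**Figure D2:**
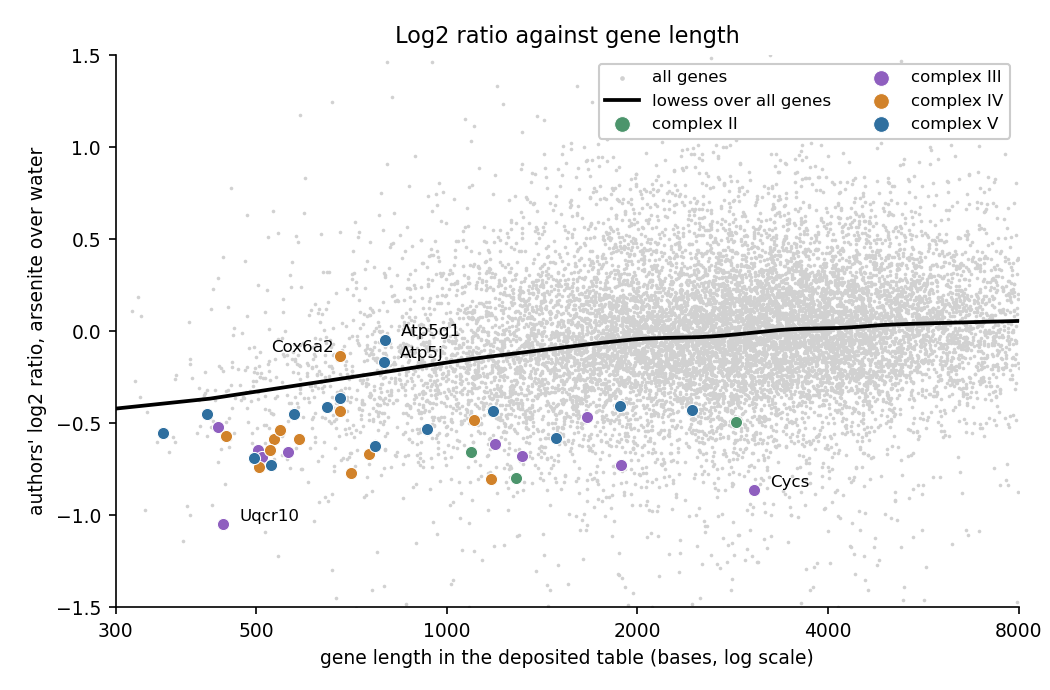
Authors' log2 ratio of arsenite over water against gene length in bases (log axis) for all genes (grey, those outside -1.5 to 1.5 or 300 to 8000 bases not drawn), with the lowess trend over all genes in black and the subunits coloured by complex. The trend slopes up with length, while the subunits lie in a level band below it, apart from Atp5g1, Cox6a2 and Atp5j.

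Gene length was taken up as a covariate because most subunit genes are short and short genes as a whole had lower ratios. Genes of 1000 bases or less had a median log2 ratio of -0.24 and longer genes one of -0.02, computed from the authors' deposited table. Among the subunits, the 26 of 1000 bases or less and the 15 longer ones both had a median of -0.58. Across the 41 subunits, which are not independent of each other and share the same libraries, Spearman's rho between ratio and length was 0.11, against 0.21 across all 13490 genes, a difference that was not tested. With the length trend removed, 38 of 41 subunits were still below 0 and the median over all of them was -0.35. The exceptions were Atp5g1, Cox6a2 and Atp5j, at 0.17, 0.13 and 0.05. The medians by complex were then -0.49 for complex II, -0.44 for complex III, -0.31 for complex IV and -0.30 for complex V, so that complex II, whose median gene length of 1233 bases is the greatest of the 4, stood lowest in place of complex III. Differences between complexes could not be tested on group means.

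Isoforms encoded by separate genes allowed the make-up of a subunit to be compared within each group, on the authors' means per kilobase of gene length. Cox8b and Cox7a1, forms that are abundant in muscle and in heat-producing adipocytes and are not among the 41 subunits, had lower ratios than their partners in most tissues. Cox8b had a mean of 1420.2 under arsenite and 3136 under water (log2 ratio of the means -1.14), and its share of Cox8a and Cox8b together was 34.2% under arsenite and 44.2% under water. Cox7a1 had 613 under arsenite and 1225 under water (-0.9996), and its share of Cox7a1 and Cox7a2 was 42.0% under arsenite and 47.6% under water. For Cox6a2 the order was the other way round, since it held 9.35% of Cox6a1 and Cox6a2 together under arsenite and 7.01% under water. Atp5g1 held 7.60% of the c subunit genes under arsenite and 6.15% under water. Cox4i2, the lung form of subunit 4, had a mean of only 24.5 under arsenite and 16.7 under water. Without values per mouse, none of these shares could be set against the spread between animals.

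**Figure D3:**
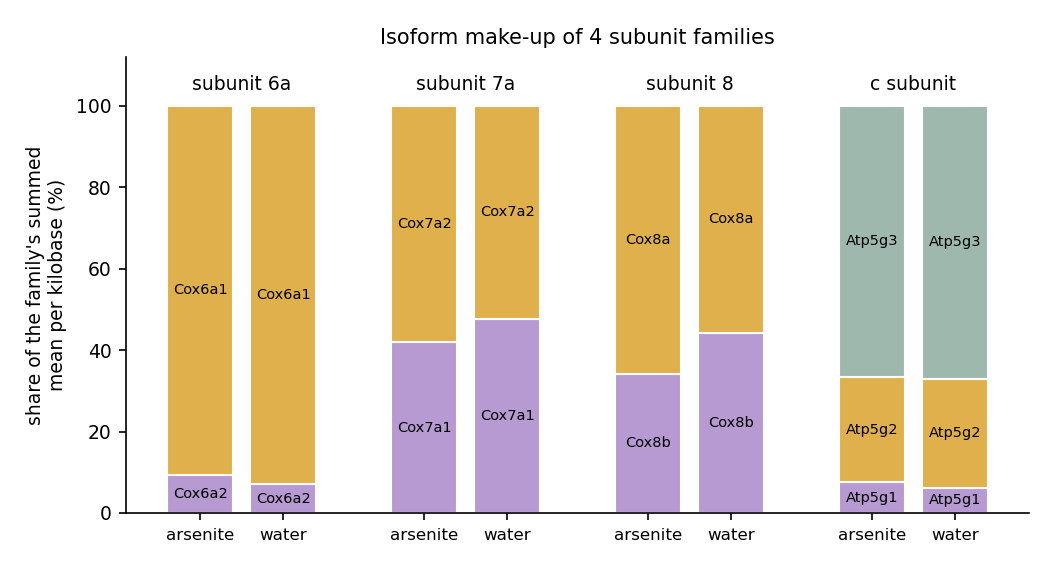
Share (%) of each isoform gene in the summed authors' mean per kilobase of its family, with arsenite left of water for subunits 6a, 7a and 8 of complex IV and the c subunit of complex V; bars are group values with no error bar. Cox8b takes 34.2% of its family under arsenite and 44.2% under water, while Atp5g3 takes 66.6% of its family under arsenite and 67.0% under water.

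Promoters were examined because the 41 subunits had ratios in the same direction and many respiratory genes are known to be driven by shared factors. RefSeq promoters of GRCm38.p6, running from 250 bases before to 50 bases after each start, matched 32 of the 41 subunits, and 5 motifs were searched on both strands. The NRF1 motif GCGCANGCG, bound by nuclear respiratory factor 1, occurred at 13 of the 32 subunits (40.6%), at 14.6% of 10655 genes of the table with a promoter, and in 6.25% of all 32851 promoters of the same length. The ETS motif CCGGAAG, bound by GABPA among others, occurred at 12 subunits (37.5%), at 19.1% of the table's genes and in 8.86% of promoters. Rarer were the ERR motif TCAAGGTCA, bound by oestrogen-related receptors (2 subunits, 6.25%, against 0.319% of the table's genes and 0.423% of promoters), and the CRE motif TGACGTCA, bound by CREB (2 subunits, 6.25%, against 3.35% of the table's genes and 1.79% of promoters). The YY1 motif AAGATGGC occurred at 3 subunits (9.38%, against 5.11% of the table's genes and 2.75% of promoters). No matches of different motifs overlapped each other at the subunits. The median log2 ratio in the authors' deposited table was -0.52 for subunits with the NRF1 motif and -0.58 for matched subunits without it. For the CRE motif, at 2 subunits, the medians were -0.77 with it and -0.56 without it. With and without the motif they were -0.57 and -0.57 for ETS, -0.58 and -0.57 for ERR, and -0.58 and -0.57 for YY1. These differences were not tested. A match describes letters only, and its absence in this window says nothing about a factor.

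Bases before the start are shown for 3 subunits with matches and for the subunits at both ends of the range of ratios, 5′ to 3′ on the strand of the gene, with matches in capitals and without stretches that lie in exons annotated by GENCODE M21. All 5 genes lie on the minus strand of GRCm38.p6. Cycs, at chr6:50566570-50566642, shows an NRF1 match. Sdhd, at chr9:50603850-50603909, shows an ETS match, and Atp5g3, at chr2:73911327-73911576, shows an ERR match. All 3 matches shown read as motifs on the opposite strand. Outside the bases shown, the searched promoters also held a CRE match for Cycs, an NRF1 and an ERR match for Sdhd, and an NRF1 match for Atp5g3. Uqcr10, the lowest by ratio, at chr11:4704345-4704594, and Atp5g1, the nearest to 0, at chr11:96075671-96075881, had no match of the 5 motifs. The same held for 10 of the 32 matched subunits in all, Uqcr10 and Atp5g1 included. The start used for the promoter of Atp5g3 lies inside the span of the gene (73908447 to 73912464), so all bases shown for it lie within that span, as do those of Atp5g1 nearest to its start.
Cycs: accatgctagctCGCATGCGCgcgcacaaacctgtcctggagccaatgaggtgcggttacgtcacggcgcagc
Sdhd: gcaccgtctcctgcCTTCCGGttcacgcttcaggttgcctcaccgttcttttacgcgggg
Atp5g3: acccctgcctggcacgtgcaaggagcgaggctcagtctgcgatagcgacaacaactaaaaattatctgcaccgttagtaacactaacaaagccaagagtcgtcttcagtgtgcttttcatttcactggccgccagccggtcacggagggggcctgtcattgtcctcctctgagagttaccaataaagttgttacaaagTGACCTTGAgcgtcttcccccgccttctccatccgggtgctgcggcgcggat
Uqcr10: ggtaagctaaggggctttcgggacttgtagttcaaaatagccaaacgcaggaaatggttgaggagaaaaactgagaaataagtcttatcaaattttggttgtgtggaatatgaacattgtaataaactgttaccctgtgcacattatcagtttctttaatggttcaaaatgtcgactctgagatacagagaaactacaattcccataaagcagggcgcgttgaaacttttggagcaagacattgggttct
Atp5g1: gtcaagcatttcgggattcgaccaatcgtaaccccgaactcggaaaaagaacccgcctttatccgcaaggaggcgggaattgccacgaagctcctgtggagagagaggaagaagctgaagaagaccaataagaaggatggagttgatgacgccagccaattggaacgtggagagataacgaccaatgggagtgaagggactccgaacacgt

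Of 8 measured subunits and isoforms of complexes IV and V outside the 41, 6 lay below 0 and 2 above, with a median of -0.59 and 0 called in the authors' deposited table. Those above 0 were Cox4i2 and Atpif1, the inhibitor of ATP synthase, which had a mean of 161 under arsenite and 142 under water. Atp5s, a coupling factor, had 72.5 under arsenite and 83.5 under water. All 36 subunits of complex I, NADH dehydrogenase, had lower means under arsenite, with a median log2 ratio of -0.56 (-0.40 with equal sums) and 0 called in the authors' deposited table. Ndufs1, an iron-sulphur core subunit, had a mean of 2300.3 under arsenite and 3393 under water. Of its membrane-arm accessory subunits, Ndufb8 had 2237 under arsenite and 3395 under water, and Ndufb9 had 3010.0 under arsenite and 4222 under water. Ndufa4, now counted as a subunit of complex IV, had a mean of 3519 under arsenite and 5355 under water. The small ATP synthase proteins Usmg5 and 2010107E04Rik also had lower means, Usmg5 with 1258 under arsenite and 1876 under water, and 2010107E04Rik with 836 under arsenite and 1318 under water. All 34 measured assembly factors of complexes II to V lay below 0 (33 with equal sums; median -0.47, 0 called, in the authors' deposited table), the nearest to 0 being Surf1, of complex IV assembly, with 417 under arsenite and 421 under water. Coa5, a complex IV assembly factor, had 2010.1 under arsenite and 3037 under water, and Tmem70, which is needed for building ATP synthase, had 761 under arsenite and 1073 under water. Atpaf2, another ATP synthase assembly factor, had 767 under arsenite and 917 under water, and Uqcc, of complex III assembly, had 644 under arsenite and 839.5 under water. The median ratio of the assembly factors as deposited was thus nearer to 0 than that of the subunits, a difference that was not tested. With the length trend removed, the medians were -0.32 for the assembly factors and -0.35 for the subunits. Once the median ratio of genes of similar average mean was subtracted, the order was reversed, at -0.43 for assembly factors and -0.38 for subunits.

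A list of 15 genes for mitochondrial proteins outside the chain lay below 0 in 15 of 15 genes (median -0.46, or -0.30 with equal sums, 0 called, in the authors' deposited table). Cs, citrate synthase, had a mean of 5963 under arsenite and 8056 under water, and Hspa9, a matrix chaperone, had 7185 under arsenite and 10532 under water. Hspd1, the matrix chaperonin, had 3457 under arsenite and 4959 under water, and Vdac1, an outer membrane channel, had 3051 under arsenite and 3705 under water. Whether the ratios of the respiratory subunits differ from those of this list could not be tested on group means. Of 17 regulators of mitochondrial biogenesis, 13 lay below 0 and 4 above (median -0.38, 0 called, in the authors' deposited table), or 11 below and 6 above with equal sums (median -0.23). Ppargc1a, the coactivator that drives biogenesis, had 610 under arsenite and 1035 under water (log2 ratio of the means -0.76). Esrra, the receptor it acts through, had 727 under arsenite and 1184 under water (-0.70). Gabpa, the ETS factor, had 582 under arsenite and 780.5 under water (-0.42), and Tfam, which packs and transcribes mitochondrial DNA, had 387 under arsenite and 513 under water (-0.40). Tfb2m, a mitochondrial transcription factor, had 632 under arsenite and 876 under water, and Lrpprc, which stabilizes mitochondrial mRNAs, had 564 under arsenite and 824 under water. Those above 0 were Nrf1, with 101 under arsenite and 98.5 under water (0.04), and 3 more that were picked after their values were seen. Pprc1, a coactivator related to Ppargc1a, had 143 under arsenite and 110.3 under water (0.37). Gabpb1, the partner of Gabpa, had 104.5 under arsenite and 89.5 under water (0.22), and Yy1, the factor of the YY1 motif, had 425 under arsenite and 373 under water (0.19).

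**Figure D4:**
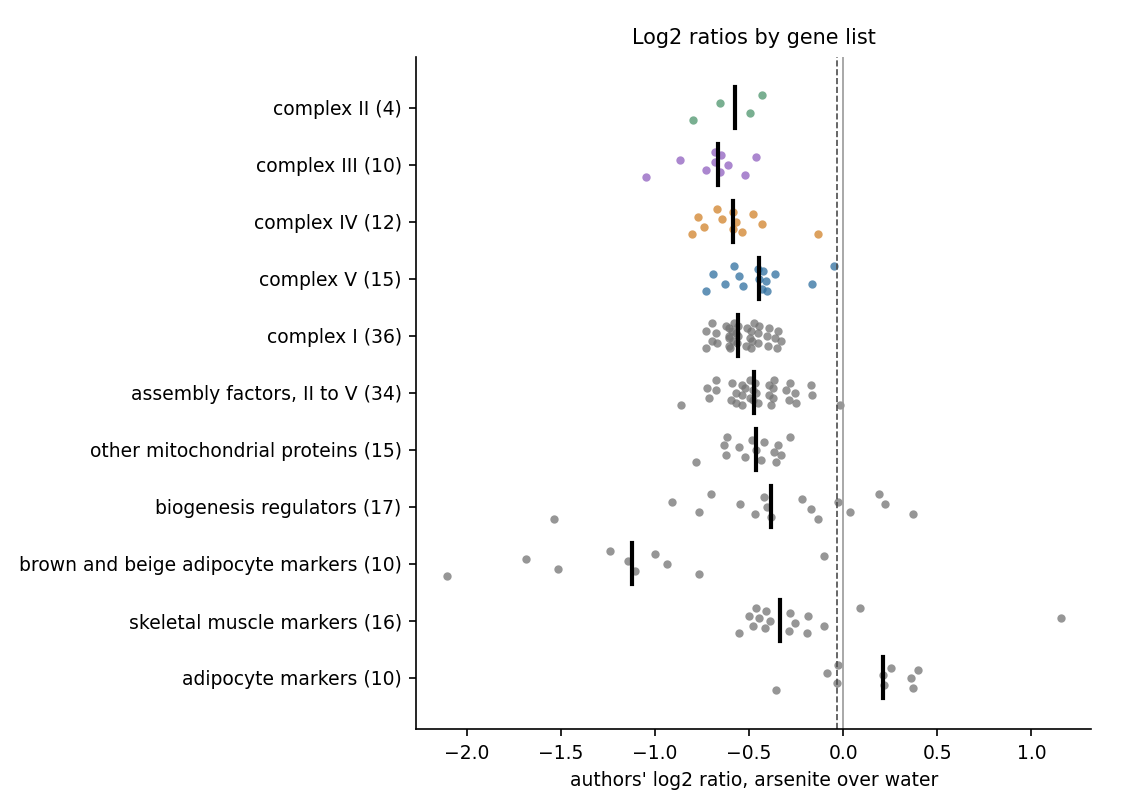
Authors' log2 ratio of arsenite over water for each gene (points) in the 4 complexes and in 7 other gene lists, with the number of genes measured in brackets; black bars are list medians and the dashed line is the median of all genes, -0.03. The 4 complexes lie at medians of -0.67 to -0.45, beside complex I and other mitochondrial genes, with the brown and beige adipocyte markers lower, at -1.12, and general adipocyte markers at 0.21.

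Markers of cell types that differ in mitochondrial content had values of their own in the same means. All 10 markers of brown and beige adipocytes, a list that holds Cox7a1, Cox8b and Ppargc1a, lay below 0 (9 with equal sums) with a median of -1.12 and 0 called in the authors' deposited table. Their means summed to 24084 under arsenite and 58741 under water, and Ucp1 had 15854 under arsenite and 37406 under water. Cidea, a lipid droplet protein of brown fat, had 2372 under arsenite and 6787 under water, and Dio2, which activates thyroid hormone, had 1035 under arsenite and 3332 under water. Of 20 skeletal muscle markers 16 were measured, and 14 of these lay below 0 (median -0.34, 0 called, in the authors' deposited table), or 13 with equal sums (median -0.18). Their means summed to 222460.0 under arsenite and 291094 under water, with the fast myosin gene Myh4 at 44653 under arsenite and 61540 under water, so muscle RNA was plentiful in both groups. The fast troponin gene Tnnt3 had 31625 under arsenite and 41966 under water, and skeletal actin, Acta1, had 19956 under arsenite and 28194 under water. Atp2a1, the calcium pump of fast fibres, had 22052 under arsenite and 25189 under water. The muscle markers above 0 as deposited, named after values were seen, were Mb and Myh1. Mb had 280 under arsenite and 126 under water (1.16), and Myh1 had 471 under arsenite and 443 under water (0.09). The muscle markers not measured were Myh2, Myh7, Tnnc1 and Tnnt1. General adipocyte markers were split, 4 below 0 and 6 above (1 and 9 with equal sums, median 0.37; median 0.21, 0 called, in the authors' deposited table), with the adipokine gene Adipoq at 20333 under arsenite and 17520 under water. Fabp4, a fatty acid binding protein, had 218556 under arsenite and 223241 under water, and Cd36, a fatty acid transporter, had 40378 under arsenite and 41106 under water. Cidec, of the large lipid droplet, had 17994 under arsenite and 13903 under water. Their sums, 337627 under arsenite and 332685 under water, differed by less than those of the lists above. No gene of these lists was at 0 in either group. The part of brown, beige or muscle cells in the lower subunit means was not tested.

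Of the other cell types, 9 of 10 endothelial markers lay above 0 (median 0.70, or 0.86 with equal sums), 7 of 9 fibroblast markers lay above 0 (median 0.19, or 0.34 with equal sums) and 5 of 8 measured leukocyte markers lay below 0 (median -0.12, but 0.033 with equal sums), in the authors' deposited table. None of these was called. PPEE exceeded 0.9 for 5 of the 10 endothelial markers, all 9 fibroblast markers and 7 of the 8 leukocyte markers. The lowest, 0.102, was that of Flt1, named after values were seen, with 485 under arsenite and 303 under water. The endothelial markers summed to 5658 under arsenite and 3404 under water. Fibroblast markers summed to 23262 under arsenite and 20198 under water, and leukocyte markers to 1144 under arsenite and 1192 under water. The most abundant endothelial markers were Cdh5 (1085 under arsenite, 559 under water), Pecam1 (1025 under arsenite, 644 under water), Kdr (784 under arsenite, 436 under water) and Egfl7 (548 under arsenite, 373 under water). The collagens Col3a1 (8937 under arsenite, 7841 under water), Col1a2 (3734 under arsenite, 2954 under water) and Col1a1 (2395 under arsenite, 1611 under water) and the proteoglycan Dcn (5910.2 under arsenite, 5719 under water) led the fibroblast list. Csf1r (470.1 under arsenite, 443 under water), Ptprc (213 under arsenite, 244 under water), Itgam (147 under arsenite, 144 under water) and Emr1 (137 under arsenite, 169.9 under water) led the leukocyte list.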

How the data were processed

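Whole-tissue RNA of the 6 mice was sequenced. The labels' protocols state alignment to GRCm38 and 20M mapped reads per sample; depth is otherwise unknown. Bowtie2, HISAT and RSEM appear in the submitters' processing notes, with no version and no stated use. The authors deposited for each gene a signal, namely the mean of each group on a count-like scale (lowest average of both means 5.11), a log2 ratio of treatment over control, a gene length, and PPEE, a posterior probability between 0 and 1 that is not a p-value. How libraries were scaled, genes filtered and groups compared is not given in the sources used here. Treatment columns were taken as arsenite and control columns as water. That log2 ratio equals that of the means after 0.574 is added to each, to within 3.62e-08, and differs from the plain log2 ratio of the means by at most 0.00042 for the subunits.

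The members and gene lists were chosen with earlier results of these data known, and lists were described by counts and medians without a test. Calls were made where PPEE was at most 0.05. By rule, each subunit is named, and of each other list its called genes or else up to 4 with the highest average mean, plus isoform partners and the regulators Ppargc1a, Esrra, Nrf1, Gabpa and Tfam; 1 gene that this rule names is not reported here. Role groups, isoform families, motifs, promoters shown and the ratio bound of -0.5 were set after values were seen. Symbols were matched directly or by RefSeq gene identifier (13463 of 13490 matched). Cox6b2, Cox7b2, Cox8c and the subunits encoded in mitochondrial DNA were not analysed here. The length trend was a lowess of span 0.3 on log10 gene length. Transcripts of GENCODE M21 were cut into 50-base stretches to count those that a gene has in common with others. The lowess and the removal of length bins were tested on simulated data with a length trend. Level bins and quantile normalization were tested on simulated data without that trend, and the other alternatives were not simulated. Alternatives were quantile, upper-quartile and equal-sum scaling, centring, an added constant of 0 or 5, a minimum average mean of 50, removal of medians in 20 length bins or (added after seeing the data) 20 level bins, and other PPEE bounds. Software was Python 3.11.15 with pandas 2.3.3, numpy 2.4.6, statsmodels 0.14.6, scipy 1.17.1 and, for figures, matplotlib 3.10.9.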

Additional observations from a re-analysis of the deposited data

How the results depend on the processing

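The medians of log2 ratios, given for all 41 subunits and then for complexes II, III, IV and V, were -0.36, -0.38, -0.44, -0.37 and -0.30 under quantile normalization; -0.52, -0.52, -0.61, -0.53 and -0.39 under upper-quartile scaling; -0.42, -0.42, -0.51, -0.43 and -0.29 with group means scaled to equal sums. They were -0.54, -0.54, -0.63, -0.55 and -0.41 after centring on all genes; -0.35, -0.49, -0.44, -0.31 and -0.30 after the lowess on length. They were -0.38, -0.48, -0.46, -0.32 and -0.31 after the removal of length bins; -0.38, -0.37, -0.46, -0.38 and -0.25 after the removal of level bins, which was added after seeing the data. All stayed below 0, and an added constant of 0 or 5 or a minimum average mean of 50 moved none by 0.005 or more. Equal sums shifted the median of all genes from -0.03 to 0.12 and the share of all genes below 0 from 54.5% to 33.8%. Of the 41 subunits, 38 to 41 lay below 0 over the 10 alternatives. Those above 0 were Atp5g1 under 6 alternatives, Cox6a2 under 3 and Atp5j under 3, so the direction of these 3 depends on the setting, and the cause was not tested. Complex V had the highest median of the 4 under all 10 alternatives, and the median of complex III minus that of complex V ranged from -0.22 to -0.14. Complex III had the lowest median except after the lowess on length or the removal of length bins, where complex II had it. No subunit was called at PPEE bounds of 0.01, 0.1 or 0.5. No paired analysis was possible because values per mouse were not analysed here, and leaving out single mice was not run for the same reason. The number of 3 mice per group limits the precision of each mean to an extent that group means do not show.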
